A study of Homo sapiens with 16 samples.

Results

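FABP1 encodes liver fatty acid binding protein, the fatty acid carrier of the hepatocyte cytosol. The gene was selected on its measured levels in these samples, where it differed between the fatty acids. All probes whose symbol was FABP1 were taken, which gave 1 gene of the 15240 distinct symbols, with 2 of the 30968 probes on the arrays. Its levels were read in all 16 samples of HepG2, a human liver tumour cell line kept in culture without serum. Probe PH_hs_0018467 is called the brighter and probe PH_hs_0038783 the dimmer FABP1 probe.

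The samples form 4 groups of 4 biological replicates, each kept for 7 days. One group received elaidic acid at 100 µM, an unsaturated fatty acid with a trans double bond. Another received oleic acid at 100 µM, whose double bond lies at the same place in the cis form. A further group received stearic acid at 100 µM, the saturated acid of the same chain length, and the control group received no fatty acid. All groups share the same cell line, so they describe 1 tumour line and not liver tissue. Total RNA was amplified, labelled with Cy5 and hybridised to 1-colour arrays.

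FABP1 belongs to a family of small intracellular proteins that hold a lipid inside a barrel of beta strands. It carries long-chain fatty acids and their coenzyme A esters, and it also binds heme and bile acids. In hepatocytes it can bring fatty acids to the nuclear receptor PPAR-alpha, and the FABP1 gene is itself a target of that receptor and of forkhead factors of the FOXA family.

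The RefSeq promoter of FABP1 is shown because the factors listed with the results below are known to act on this gene. The window holds the 250 bases before the annotated start, on the minus strand at chr2:88128063-88128312 of GRCh38.p14. The array table gives no genome build, and the positions are those of RefSeq. Capitals mark matches to searched motifs, and positions are counted back from the start.
FABP1 promoter: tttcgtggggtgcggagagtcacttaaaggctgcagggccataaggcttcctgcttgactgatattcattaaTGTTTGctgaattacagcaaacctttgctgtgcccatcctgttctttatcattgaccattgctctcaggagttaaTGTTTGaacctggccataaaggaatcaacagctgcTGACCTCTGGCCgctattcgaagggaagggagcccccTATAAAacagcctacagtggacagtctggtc
The motifs were searched on both strands in this window and in the windows of the same length of all 35116 promoters in the table. The forkhead core TGTTTG occurred at -178 and at -103, and 12.8% of windows held it. The nuclear receptor half-site AGGTCA occurred once, on the opposite strand at -68, and 12.1% of windows held it. It lies inside an imperfect direct repeat at -68 to -57, made of TGACCT, any 1 base and TGGCC, which 0.0313% of windows held and which was spelled out after this window had been read. TATAAA occurred at -31, and 10.7% of windows held it. A perfect direct repeat of AGGTCA with 1 base between was not in this window, and 0.0171% of windows held it.

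The arrays come from 2 ranges of array numbers, A and B, over which the fatty acids were spread unevenly. Range A holds elaidic acid replicates 2 and 4, all oleic acid samples and all control samples, 10 arrays in all. Range B holds elaidic acid replicates 1 and 3 and all stearic acid samples, 6 arrays in all. Stearic acid therefore shares no range with oleic acid or control, and for those pairs range and fatty acid cannot be told apart within a range. Median intensity per array ran from 19.95 to 76.1, and the dimmest arrays were oleic acid replicate 4 and control replicate 1. Correlations of normalised log2 values between arrays ran from 0.790 to 0.970. With 4 arrays a group, precision is set by their number.

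FABP1 gave its highest signals with elaidic and stearic acid. The brighter probe had an intensity of 38532, 13948, 45084 and 12206 in elaidic acid replicates 1 to 4. It had 4257, 4226, 5251 and 1174 with oleic acid. With stearic acid it had 25958, 21234, 23738 and 24289, and in control 924, 5114, 5186 and 11431. Every elaidic acid and every stearic acid array was above every oleic acid and every control array. The stearic acid arrays lay inside the range of the elaidic acid arrays, and the control arrays covered the whole range of the oleic acid arrays. Among the 30968 probes of an array, this probe stood between the 99.42 and 99.84 percentile with elaidic acid. It stood between 94.96 and 98.15 with oleic acid, between 99.34 and 99.53 with stearic acid and between 94.46 and 98.80 in control.

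The dimmer probe, which reads the same gene near the middle of the intensity scale, gave the same order of group means. Its intensity was 281, 46.5, 223 and 97.2 in elaidic acid replicates 1 to 4, and 28.8, 37.8, 21.4 and 3.38 with oleic acid. It was 78.3, 111, 175 and 157 with stearic acid, against 15.6, 23.2, 28.4 and 73.6 in control. Every elaidic acid array was above every oleic acid array. Elaidic acid replicate 2 lay below control replicate 4 on this unscaled intensity, so these groups overlapped there. The highest elaidic acid values of both probes came from replicates 1 and 3, the arrays of range B.

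**Figure D1:**
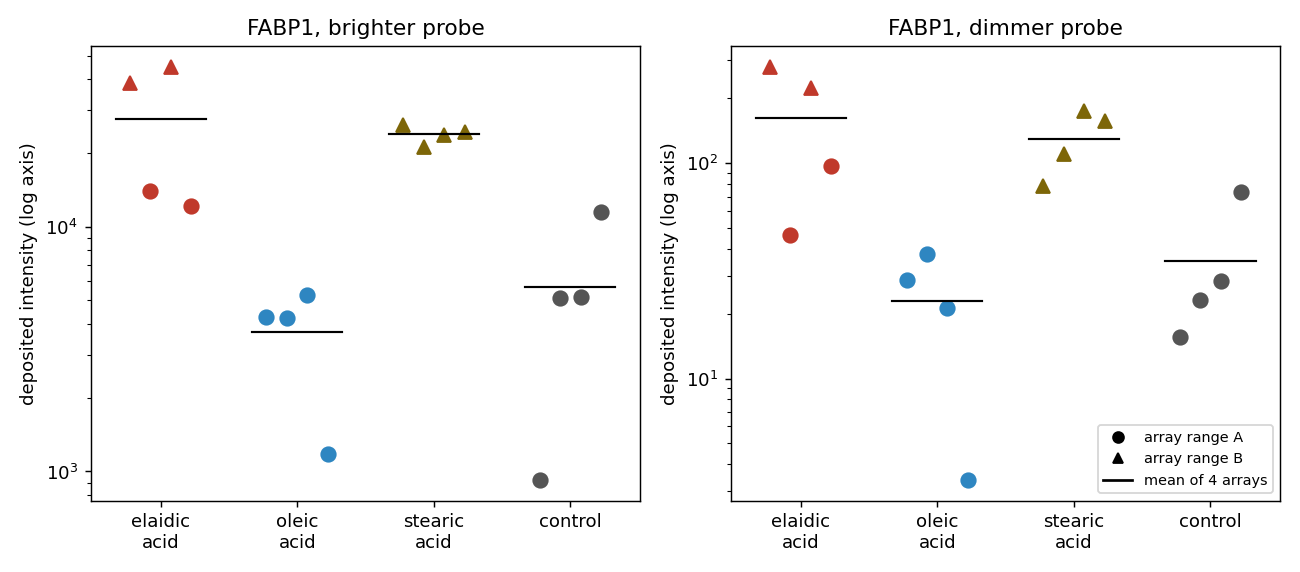
Deposited intensity of the brighter (left) and dimmer (right) FABP1 probe on a log axis, for elaidic acid, oleic acid, stearic acid and control, with a circle for an array of range A, a triangle for an array of range B and a line at the mean of 4 arrays. On the brighter probe all elaidic and stearic acid arrays sit above all oleic acid and control arrays, with control replicate 4 the highest control array at 11431.

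After quantile normalisation on the log2 scale, FABP1 was highest with elaidic acid and lowest with oleic acid. The brighter probe averaged 14.48 ± 0.54 with elaidic acid, 12 ± 0.67 with oleic acid, 13.96 ± 0.14 with stearic acid and 12.25 ± 0.96 in control (SD, n = 4 each). The dimmer probe averaged 7.05 ± 0.77 with elaidic acid, 4.37 ± 1.32 with oleic acid, 6.59 ± 0.36 with stearic acid and 4.91 ± 0.31 in control (SD, n = 4 each). Both probes thus put the groups in the order elaidic acid, stearic acid, control, oleic acid. In that order elaidic acid and stearic acid overlapped, and so did oleic acid and control, while stearic acid and control did not. Because FABP1 was taken up for its values in these samples, the differences below are descriptions with standard errors (SE) and carry no test.

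The comparison of elaidic acid with oleic acid sets the trans form beside the cis form of the same acid. FABP1 was 2.48 ± 0.43 higher with elaidic acid on the brighter probe (log2 difference ± SE), a 5.59-fold difference, and 2.68 ± 0.52 higher on the dimmer probe, a 6.41-fold difference. All 4 elaidic acid arrays lay above all 4 oleic acid arrays on both probes, as did 4.07% of all 22939 probes tested. The probes ranked 35 and 23 from the top of this comparison, whose median over all probes was -0.13. Within range A, 2 elaidic acid arrays stood against 4 oleic acid arrays. In a fit of that range alone the differences were 2.02 ± 0.59 and 2.08 ± 0.68 (SE). Both elaidic acid arrays were above all oleic acid arrays there on both probes, as were those of 6.29% of all probes.

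The comparison of elaidic acid with control sets the trans acid beside no added fatty acid. FABP1 was 2.23 ± 0.43 higher on the brighter probe (SE), a 4.70-fold difference, and 2.14 ± 0.52 higher on the dimmer probe, a 4.42-fold difference. All elaidic acid arrays were above all control arrays on both probes after normalisation, as for 3.82% of all probes, and the probes ranked 57 and 74 from the top. In a fit of range A alone the differences were 1.77 ± 0.59 and 1.54 ± 0.68 (SE), or 3.40-fold and 2.91-fold. Their standard errors were 0.50 and 0.60 in the fit that has array range as a block. Both elaidic acid arrays of range A were above all control arrays, which held for 7.17% of all probes.

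Elaidic acid against stearic acid sets the trans acid beside the saturated one. Over all arrays FABP1 differed by 0.53 ± 0.43 on the brighter and 0.46 ± 0.52 on the dimmer probe (SE), and the groups overlapped. Each difference was close to the size of its SE. Without normalisation the brighter probe's difference turned to -0.03. In a fit of range B alone the elaidic acid arrays were 0.99 ± 0.17 and 1.06 ± 0.28 higher (SE), or 1.99-fold and 2.09-fold. The fit with array range as a block gave these same differences larger SEs, of 0.50 and 0.60. Both elaidic acid arrays of range B lay above all 4 stearic acid arrays on both probes, as those of 11.1% of all probes did. The overlap over all arrays came from elaidic acid replicates 2 and 4, which were hybridised in range A.

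Stearic acid against control gave a 3.26-fold difference on the brighter probe, 1.71 ± 0.43 on the log2 scale (SE), and a 3.21-fold difference on the dimmer probe, 1.68 ± 0.52. All stearic acid arrays were above all control arrays, as for 18.7% of all probes, in a comparison where each group lies in a range of its own. With array range as a block the differences were 0.78 ± 0.71 and 0.48 ± 0.85 (SE), through the elaidic acid arrays that link the ranges. Oleic acid against stearic acid gave -1.96 ± 0.43 and -2.22 ± 0.52, with all oleic acid arrays lower, as for 21.2% of all probes. With the block these were -1.03 ± 0.71 and -1.01 ± 0.85. The block takes the range difference from the elaidic acid arrays alone.

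Oleic acid against control showed FABP1 at -0.25 ± 0.43 on the brighter and -0.54 ± 0.52 on the dimmer probe (SE), with overlapping groups on both. Without oleic acid replicate 4 these differences turned to 0.07 and 0.06. Without the dimmest array of each group the dimmer probe's turned to 0.02, while the brighter probe's moved to -0.38. Oleic acid replicate 4 held the lowest value of both probes among the oleic acid arrays.

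**Figure D2:**
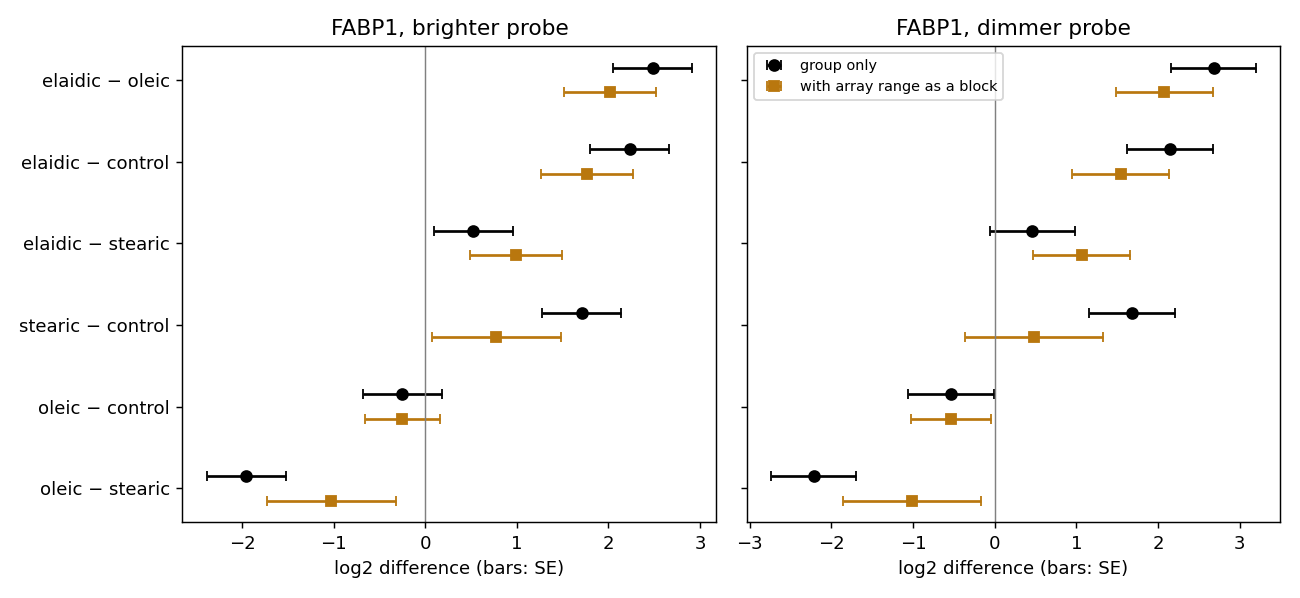
Log2 differences of both FABP1 probes in the 6 comparisons between groups, over all arrays and with array range as a block, with bars for the SE. The elaidic acid differences from oleic acid and control are 2.02 and 2.08, and 1.77 and 1.54, with the block, while the differences of stearic acid from control shrink to 0.78 and 0.48.

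Within elaidic acid, the arrays of range B were higher than those of range A, by 0.93 on the brighter probe and 1.204 on the dimmer probe (log2, 2 arrays each, no test). On the deposited scale the ratio of means was 3.20 and 3.51. Of all probes tested, 17.3% and 12.5% had a larger difference between these arrays, whose median over all probes was -0.13 with an SD of 1.04.

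The probes of FABP1 gave signals of very unequal brightness, and both were high on the same elaidic acid arrays. The brighter probe exceeded the dimmer one by 7.43 ± 0.43 on the log2 scale with elaidic acid, by 7.63 ± 0.78 with oleic acid, by 7.37 ± 0.45 with stearic acid and by 7.35 ± 0.84 in control (SD, n = 4 each). These gaps between probes are differences in signal of 2 sequences and not levels of 2 transcripts. Correlations of the probes over arrays are given as descriptions with no test, since they use the values on which the gene was selected and hold the group differences. Over the 10 arrays of range A the normalised levels correlated at r = 0.796 and rho = 0.721. Without control replicate 1 and elaidic acid replicate 2, the arrays farthest from the median of the brighter probe, r was 0.916. Over the 6 arrays of range B r was 0.797 and rho 0.429, which rests on elaidic acid replicates 1 and 3, without which r was -0.505. Over the 8 oleic acid and control arrays r was 0.613 and rho 0.476, and without control replicate 1 and oleic acid replicate 4 r was 0.292.

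**Figure D3:**
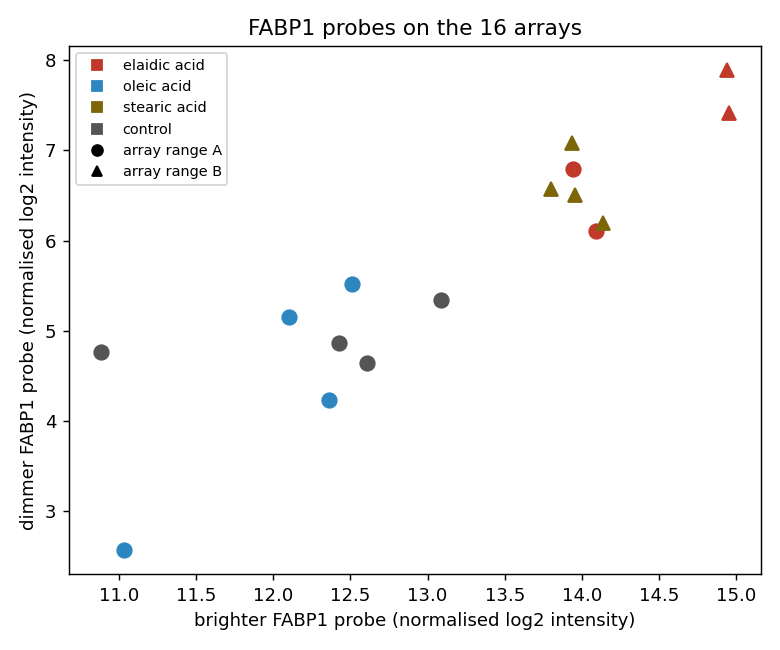
Normalised log2 intensity of the dimmer against the brighter FABP1 probe, 1 point per array, coloured by group and shaped by array range. Elaidic and stearic acid arrays lie at the upper right, oleic acid and control arrays at the lower left, and oleic acid replicate 4 has the lowest dimmer value at 2.57.

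Array brightness varied within the oleic acid and control groups, and the levels of FABP1 can be set beside it. Over these 8 arrays the normalised level of the brighter probe and the log2 median intensity of the array had r = 0.802 and rho = 0.571, and without control replicates 1 and 4 r was 0.574. For the dimmer probe r was 0.423 and rho 0.262. These values too are descriptions with no test. With control replicate 1 and oleic acid replicate 4 left aside, an alternative chosen after seeing the data, FABP1 differed by 2.14 and 2.07 between elaidic acid and oleic acid on its brighter and dimmer probe, and by 1.75 and 2.09 between elaidic acid and control (log2). The part of array brightness in the FABP1 differences was not tested.

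The relatives of FABP1 are lipid carriers of other tissues and the cellular carriers of retinol and retinoic acid. Of 16 family genes 12 had a probe, and FABP5, FABP9 and FABP12 were not analysed here. FABP2 of the intestine, FABP4 of fat cells, FABP7 of brain and PMP2 of myelin had values at or below 0 on some arrays and medians between 3.43 and 5.19, and they were left out of the tests. FABP1 had a median of 11818 on its brighter probe over the 16 arrays. The medians of the others were 39.5 for FABP3 of heart muscle, 127 for FABP6, the bile acid carrier of the ileum, 263 for the brighter probe of CRABP2 and 11.5 for CRABP1, both carriers of retinoic acid. For the retinol carriers they were 13.9 for RBP2, 23.7 for RBP7, and 8.97 and 6.99 for the probes of RBP5. Probes differ in sequence, so these intensities rank no transcript against another.

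For elaidic acid against oleic acid 0 of the 7 other family members tested passed at an adjusted p under 0.05 in limma. Of all probes 0.318% passed there (0.0218% with array range as a block). An unadjusted p under 0.05 was found for 3 of the 7 and for 4342 of all 22939 probes. Elaidic acid against control gave 0 of 7, beside 0.323% of all probes (0.0392% with the block). Unadjusted p was under 0.05 for 1 of the 7 and for 3283 of all probes. Elaidic acid against stearic acid gave 0 of 7, beside 0.397% of all probes (0.00436% with the block). Unadjusted p was under 0.05 for 0 of the 7 and for 3330 of all probes. CRABP1 had a difference of -1.32 ± 0.41 from oleic acid (SE, adjusted p = 0.17) and of -1.505 ± 0.41 from control (adjusted p = 0.14). RBP5 had 2.03 ± 0.66 from oleic acid (adjusted p = 0.18) and RBP2 1.41 ± 0.54 (adjusted p = 0.21). FABP3 and FABP6 had 0.23 ± 0.29 and -0.41 ± 0.30. With array range as a block the differences from oleic acid were -1.18 for CRABP1, 1.54 for RBP5 and 0.38 for RBP2. FABP3 and FABP6 had 0.71 and -0.002 with it, and CRABP1 had -1.36 from control. The median of the 7 differences from oleic acid was 0.23, against -0.13 over all probes.

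With stearic acid against control 4 of the 7 passed, in a comparison where 29.8% of all probes did, 15% higher and 14.8% lower. RBP2 rose by 1.54, and CRABP1, CRABP2 and FABP6 fell, with differences from -1.37 to -0.71. Oleic acid against stearic acid had 39.5% of all probes called, 21% higher and 18.4% lower, and there FABP6, CRABP2 and CRABP1 were higher by 0.76 to 1.19 while RBP2 was lower, at -2.47. With array range as a block 0 probes passed limma in either comparison, and 1710 and 1513 had an unadjusted p under 0.05. For stearic acid against control RBP2 then turned to -0.52, while CRABP1, CRABP2 and FABP6 had -1.08, -0.20 and -0.03. For oleic acid against control 0 of all probes passed and 602 had an unadjusted p under 0.05, so no list below has a member called there.

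**Figure D4:**
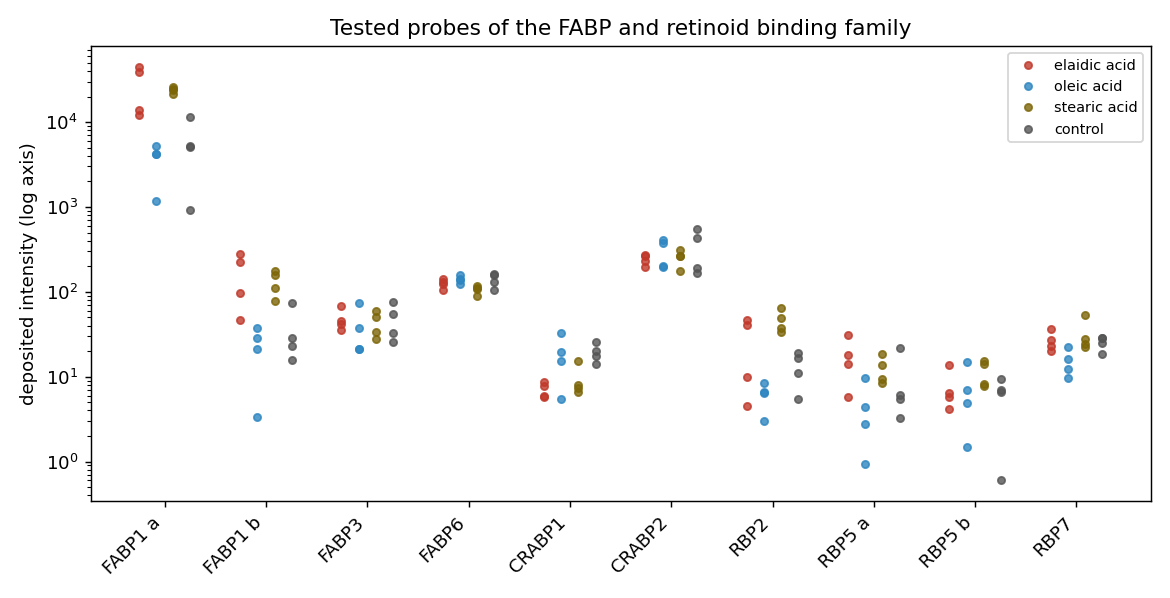
Deposited intensity of each tested family probe on a log axis, 1 point per array, coloured by elaidic acid, oleic acid, stearic acid and control; a marks the brighter and b the dimmer probe of a gene. FABP1 a has a median of 11818 and separates elaidic and stearic acid arrays from the rest, while FABP3, FABP6 and CRABP2 show overlapping elaidic acid and oleic acid arrays.

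Genes that PPAR-alpha is known to switch on, mostly enzymes of fatty acid oxidation, had no called member in the elaidic acid comparisons. Of 30 listed genes 22 had a probe and 16 were tested. Against oleic acid 0 of 16 passed limma and 5 had an unadjusted p under 0.05, as did 4342 of all 22939 probes. Above 0 were 11 of the 16, beside 42.9% of all probes. The list's median was 0.21, against -0.13 over all probes, and with array range as a block it was 0.11. ACAA1, the thiolase of peroxisomes, had 2.12 ± 0.65 (SE, adjusted p = 0.16). HADHA, a subunit of the mitochondrial trifunctional enzyme, had 0.78 ± 0.30 (adjusted p = 0.21), ECH1, an enoyl-CoA isomerase, 1.59 ± 0.62 (adjusted p = 0.21) and ACADM, the medium-chain acyl-CoA dehydrogenase, 1.07 ± 0.45 (adjusted p = 0.23). These 4 had the smallest p of the list, and with array range as a block their differences were 0.67, 0.55, 0.75 and 0.17.

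Against control 0 of the 16 PPAR-alpha targets passed limma and 3 had an unadjusted p under 0.05, as did 3283 of all 22939 probes. Above 0 were 11 of the 16, beside 43.5% of all probes, with a list median of 0.30. The smallest p belonged to HADHA at 0.68, ADFP, the lipid droplet coat protein now called PLIN2, at 0.46, ECH1 at 1.35 and ACADM at 0.93. With array range as a block they had 0.45, 0.31, 0.51 and 0.04, and the list median was 0.13. Against stearic acid 0 passed and 1 had an unadjusted p under 0.05, as did 3330 of all probes. CROT, which makes carnitine esters of medium-chain acids in peroxisomes, had 1.33 there, and SLC25A20, the carnitine carrier of mitochondria, had -0.43. ACAA1 had -1.21 and HADHA -0.45. With the block CROT had 0.72, SLC25A20 -0.27, ACAA1 0.24 and HADHA -0.22.

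In stearic acid against control, 6 of the 16 targets rose, by 0.63 to 1.98, beside 15% of all probes, and they were SLC25A20, HADHA, ACADM, ECH1, ACAA1 and ADFP. CROT fell, at -1.60. For oleic acid against stearic acid CROT was higher, at 1.58, and ACAA1, HADHA, ACADM, ECH1 and SLC25A20 were lower, from -3.33 to -0.69, beside 18.4% of all probes. With the block 0 of the 16 passed in any of the 6 comparisons. For stearic acid against control SLC25A20, HADHA, ECH1 and ADFP then had 0.47, 0.66, 0.28 and 0.33. ACADM and ACAA1 turned to -0.25 and -0.92. The list median went from 0.35 to -0.16 there, and from -0.42 to 0.09 for oleic acid against stearic acid. In oleic acid against control the values of smallest p were -1.35 for ACAA1, 0.37 for CPT1A, 0.31 for ADFP and -0.78 for PEX11A, and 0 of the 16 had an unadjusted p under 0.05.

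The list of fatty acid uptake and activation holds genes that bring the ligand of FABP1 into the cell or turn it into its coenzyme A ester. It also holds the acyl-CoA thioesterases ACOT7, ACOT8 and THEM2 and the binding proteins DBI and SCP2. All 20 had a probe and 16 were tested. ACSL4, an acyl-CoA synthetase that prefers polyunsaturated acids, averaged 10.59 ± 0.44 with elaidic acid, 9.14 ± 0.15 with oleic acid, 9.91 ± 0.21 with stearic acid and 9.12 ± 0.26 in control (SD, n = 4 each). It rose by 1.45 ± 0.24 with elaidic acid against oleic acid (SE, adjusted p = 0.018) and by 1.47 ± 0.24 against control (adjusted p = 0.014). It was the 1 member of 16 that passed in each, where 0.301% and 0.305% of all probes rose. Unadjusted p was under 0.05 for 6 and 5 members, and for 4342 and 3283 of all 22939 probes. With array range as a block ACSL4 had differences of 1.18 ± 0.26 (adjusted p = 0.21) and 1.204 ± 0.26 (adjusted p = 0.15), and it no longer passed. It also did not pass against oleic acid without oleic acid replicate 3 or elaidic acid replicate 1 or 3, nor against control without control replicate 3 or elaidic acid replicate 1 or 3, when 0 of the 16 passed. Against oleic acid 15 of the 16 were above 0, beside 42.9% of all probes, with a list median of 0.78. With the block 13 were above 0 with a median of 0.16.

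Against stearic acid 0 of the 16 uptake and activation genes passed limma. Unadjusted p was under 0.05 for 4 of them and for 3330 of all 22939 probes. ACOT8, a peroxisomal thioesterase, had -1.45 ± 0.31 (SE, adjusted p = 0.058), ACSL4 0.68, GOT2, also known as a fatty acid binding protein of the plasma membrane, -1.86, and SLC27A2, a very long-chain acyl-CoA synthetase, -0.97. With array range as a block ACOT8 had -1.12, ACSL4 0.94, GOT2 -0.23 and SLC27A2 -0.27. In stearic acid against control 7 rose, by 0.79 to 3.12, beside 15% of all probes, and they were ACOT8, GOT2, SCP2, ACOT7, ACSL4, ACSL3 and SLC27A2. In oleic acid against stearic acid 9 were lower, from -3.25 to -0.74, beside 18.4% of all probes, and they were ACOT8, SCP2, DBI, SLC27A2, GOT2, ACOT7, THEM2, ACSL4 and ACSL5. With the block none of these passed. For stearic acid against control 13 of the 16 were above 0 with a median of 0.94, and 7 with a median of -0.04 with the block. For oleic acid against stearic acid the median went from -0.92 to -0.24 with it. In oleic acid against control the values of smallest p were -0.69 for DBI, the acyl-CoA binding protein, -1.46 for THEM2, 0.77 for ACSL3 and 0.58 for SLC27A1, and 0 had an unadjusted p under 0.05.

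The factors known to control FABP1 were measured in part. Of 25 listed regulators 20 had a probe and 18 were tested, while HNF4A, CEBPA and RXRB were not analysed here. PPARA, the receptor to which FABP1 delivers fatty acids, averaged 10.09 ± 0.30 with elaidic acid, 10.77 ± 0.68 with oleic acid, 9.60 ± 0.27 with stearic acid and 10.53 ± 0.25 in control (SD, n = 4 each). Its difference was -0.68 ± 0.30 for elaidic acid against oleic acid (SE, adjusted p = 0.24) and -0.44 ± 0.30 against control (adjusted p = 0.49), opposite in sign to FABP1 and not past the test. Of the 18 regulators 0 passed limma for elaidic acid against oleic acid, control or stearic acid. Unadjusted p was under 0.05 for 6, 5 and 3 of them, beside 4342, 3283 and 3330 of all 22939 probes. The smallest p against oleic acid belonged to NR1H4, the bile acid receptor, at 1.84 ± 0.58 (adjusted p = 0.17), CEBPB at 1.98 ± 0.64 (adjusted p = 0.17), FOXA3, a forkhead factor, at 1.10 (adjusted p = 0.18) and GATA4 at 0.64 (adjusted p = 0.21). The same 4 had the smallest p against control, with GATA4 at 0.84, FOXA3 at 1.19, NR1H4 at 1.81 and CEBPB at 1.92. The median of the 18 differences was 0.35 against oleic acid and 0.33 against control. With array range as a block these medians were 0.11 and 0.16.

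In stearic acid against control 7 of the 18 regulators rose, by 0.76 to 2.58, beside 15% of all probes, and they were FOXA3, GATA4, PPARD, CEBPB, NR0B2, CEBPD and RXRA. ONECUT1, PPARA and NR1H3 fell, from -1.04 to -0.87, beside 14.8% of all probes. In oleic acid against stearic acid PPARA and HNF4G were higher, by 1.17 and 1.37, and 8 were lower, from -2.63 to -0.63, beside 21% and 18.4% of all probes. With the block 0 of the 18 passed in either comparison, and PPARA had -0.49 for stearic acid against control (adjusted p = 0.98). The list medians of these comparisons were 0.63 and -0.65, and -0.12 and 0.04 with the block.

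All tested markers of hepatocytes were above 0 in the elaidic acid comparisons with oleic acid and control, with few past the test. Of 15 markers 12 had a probe and 11 were tested, while ALB, HP and RBP4 were not analysed here and FGA had values at or below 0. TTR, the thyroxine and retinol carrier of plasma, rose by 1.82 ± 0.28 with elaidic acid against oleic acid (SE, adjusted p = 0.015) and by 1.73 ± 0.28 against control (adjusted p = 0.014). APOH, a plasma glycoprotein, rose by 1.21 ± 0.22 against oleic acid (adjusted p = 0.034). These were 2 and 1 of 11 called, beside 0.301% and 0.305% of all probes. All 11 were above 0 in both comparisons, as were 42.9% and 43.5% of all probes, with list medians of 1.02 and 0.86 against -0.13 and -0.10 over all probes. With array range as a block TTR had 1.75 ± 0.34 and 1.66 (adjusted p = 0.12 in both), APOH had 1.05 (adjusted p = 0.28), and the list's medians were 0.74 and 0.41. Above 0 were then 11 of the 11 against oleic acid and 10 against control. Without elaidic acid replicate 1 or 3, 0 of the 11 passed in either comparison. In bulk samples more cells of a type and more RNA per cell cannot be told apart.

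The mean log2 level of the 11 hepatocyte markers ran from 11.79 to 12.76 on the elaidic acid arrays, from 10.41 to 11.40 with oleic acid, from 12.41 to 12.63 with stearic acid and from 10.50 to 11.73 in control. Within elaidic acid it was 12.63 to 12.76 in range B and 11.79 to 11.82 in range A. Against stearic acid 3 of 11 were above 0 with a median of -0.31, while 54.8% of all probes were above 0. There 0 of 11 markers passed limma and 3 had an unadjusted p under 0.05, as did 3330 of all 22939 probes. TTR had 1.15 ± 0.28 (SE, adjusted p = 0.082), AHSG -0.73, FGG -0.86 and TF -0.94. With array range as a block these differences were 1.22, -0.48, -0.22 and -0.20. In stearic acid against control 7 of 11 rose, by 0.90 to 3.18, beside 15% of all probes, and in oleic acid against stearic acid 7 were lower, from -3.27 to -1.09, beside 18.4% of all probes. With the block 0 of the 11 passed in either, and the list medians of 1.09 and -1.15 became 0.38 and -0.60. For 9 tested common reference genes the mean log2 level within elaidic acid was 8.05 to 8.11 in range B and 7.23 to 7.26 in range A, while their summed level was 8011 to 9151 in range B and 9876 to 10936 in range A. Their mean log2 level was 6.72 to 7.28 with oleic acid, 7.77 to 8.24 with stearic acid and 6.90 to 7.64 in control. In stearic acid against control 4 of the 9 rose and 1 fell, beside 15% and 14.8% of all probes. With array range as a block 0 of the 9 passed there, and their median went from 1.03 to -0.03. For elaidic acid against oleic acid and control their median differences were 0.76 and 0.44, and 0.19 and 0.15 with the block. Above 0 were 6 of the 9 in each, and 7 and 6 with the block. The part of either list in the FABP1 differences was not tested.

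Markers of fibroblasts, endothelium, leukocytes, enterocytes and fat cells had no common direction for elaidic acid against oleic acid or control over all arrays. Of 27 genes 25 had a probe and 19 were tested, while COL3A1, KDR, LYZ, SI, FABP2 and FABP4 had values at or below 0 on some arrays. Their mean log2 level ran from 6.90 to 7.12 with elaidic acid, from 6.83 to 7.26 with oleic acid, from 6.70 to 6.91 with stearic acid and from 6.96 to 7.14 in control. Their summed level ran from 14158 to 26278 with elaidic acid (14158 to 14287 in range B and 22182 to 26278 in range A), from 21775 to 29305 with oleic acid, from 10297 to 15133 with stearic acid and from 22472 to 32815 in control. For elaidic acid against oleic acid 9 of 19 were above 0, with a median of -0.08, beside 42.9% of all probes. There 0.301% of all probes were called higher. The 1 called member of the 19 was APOA4 at 1.62, an apolipoprotein of the intestine that liver cells also make. Its adjusted p was 0.046, and with array range as a block it had 1.39 (adjusted p = 0.41) and no longer passed. Against control 8 of 19 were above 0 with a median of -0.17, beside 43.5% of all probes. Against stearic acid 14 of 19 were above 0 with a median of 0.40, beside 54.8% of all probes. With the block 12, 13 and 14 of 19 were above 0 against oleic acid, control and stearic acid.

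The probes whose pattern was most like that of FABP1 were ranked over 13451 probes with 1 symbol. Likeness was Pearson's r over the 16 arrays with the mean of both FABP1 probes, after the mean of each array range had been taken away, and it is a description with no test. The arrays share groups and brightness, so the values of r are not independent. The median over all ranked probes was -0.02, with a range from -0.87 to 0.957. AIFM2, an oxidoreductase that recycles coenzyme Q, had the highest r at 0.957, with 0.976 within range A and 0.844 within range B. ACSS2, an acetyl-CoA synthetase, had 0.947, APOA4 0.944, the brighter probe of TTR 0.934, and DAK, a triokinase, 0.933. DHCR7, the enzyme of the last step of cholesterol synthesis, had 0.926, the deiodinase DIO1 0.925, TINAG 0.924, a dimmer probe of TTR 0.923 and GNE, which starts sialic acid synthesis, 0.920.

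TTR and ACSS2 show how far that likeness goes on single arrays. The brighter probe of TTR had 14.90, 14.96, 14.85 and 14.53 on the elaidic acid arrays, 13.39, 13.17, 13.18 and 12.22 with oleic acid, 13.80, 13.73, 13.63 and 13.46 with stearic acid and 12.38, 13.21, 13.34 and 13.38 in control (normalised log2 level). All elaidic acid arrays of both ranges were above all other arrays, and the share of all probes with that order was not counted. TTR and ACSS2 were picked for their likeness to FABP1 on these same arrays, so their order is no separate support. ACSS2 had 9.52, 7.69, 8.57 and 7.51 with elaidic acid, 6.43, 5.998, 5.76 and 4.69 with oleic acid, 8.16, 7.79, 8.21 and 8.02 with stearic acid and 4.69, 6.40, 6.31 and 6.80 in control. Its elaidic acid arrays were above all oleic acid and control arrays and overlapped the stearic acid arrays, as those of FABP1 did. Elaidic acid arrays lay above all oleic acid arrays for 4.07% of all probes and above all control arrays for 3.82%.

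The probes most opposite to FABP1 were those of CXCR6, a chemokine receptor, at r = -0.870, MEOX1, a homeobox factor, at -0.858, KIAA0195 at -0.854, MED22, a subunit of the Mediator complex, at -0.853 and SCAP, the sterol sensor that escorts SREBP, at -0.849. With control replicate 1 and oleic acid replicate 4 left aside, the 10 probes most like FABP1 kept r between 0.843 and 0.941, and the opposite probes lay between -0.746 and -0.678. Of the 10 most like, 5 were again among the top 10 in that setting. By list, the median r was 0.691 for hepatocyte markers, 0.363 for PPAR-alpha targets, 0.337 for uptake and activation, 0.124 for the regulators and -0.184 for the 7 other family members. Within the regulators r ran from -0.59 for PPARA to 0.86 for NR1H4.

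**Figure D5:**
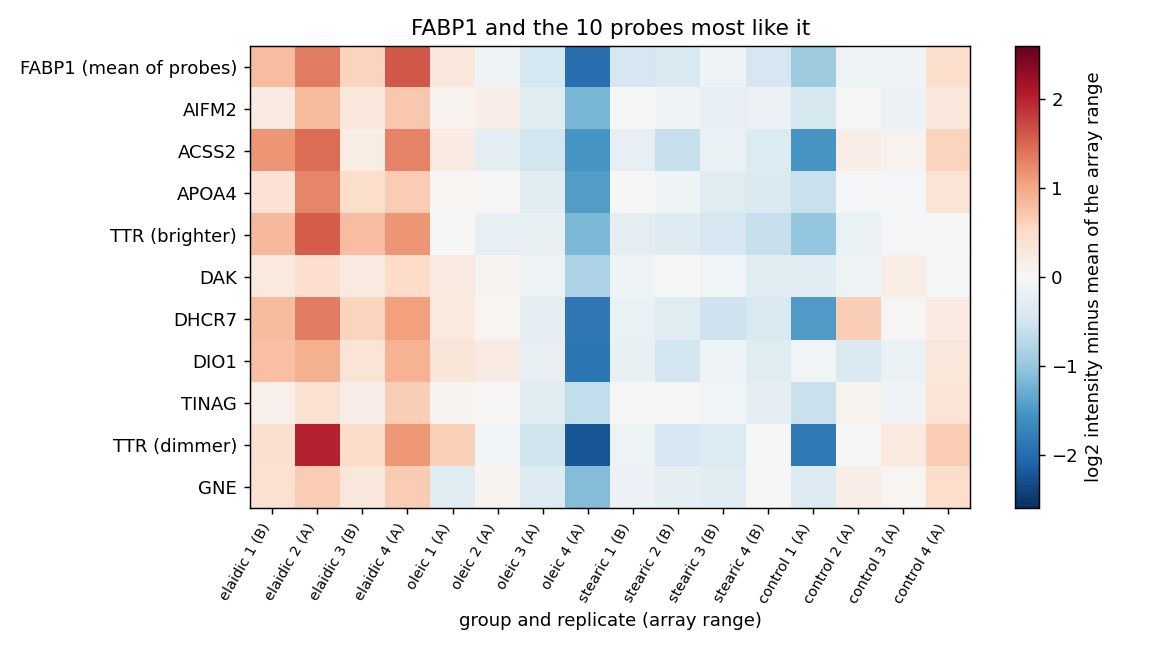
Normalised log2 intensity minus the mean of the array range for FABP1 (mean of both probes) and the 10 probes most like it, 1 column per array, with red above and blue below the range mean. All 4 elaidic acid columns are red for FABP1, and oleic acid replicate 4 and control replicate 1 are the darkest blue columns.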

How the data were processed

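The deposited table holds 1 intensity per probe and sample on a linear scale, with values at or below 0 and no scaling between samples, as the values show. How the authors corrected the background and combined the 2 technical replicates that the labels name is not given in the sources used here. Gene symbols came from the platform annotation, with 1 symbol for 17397 probes and none for 13571. Older symbols are kept as given.

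Values were put on the log2 scale, and the 8029 probes (25.9%) with any value at or below 0 were dropped. Because log2 medians of the arrays spanned 1.82, quantile normalisation was applied to the other 22939. The fit used lmFit and eBayes of limma 3.58.1 (R 4.3.3), two-sided, on all 16 samples with group alone. Calls were made where the p-value adjusted over all probes by Benjamini-Hochberg was under 0.05. Array range as a block was the other design, given for FABP1 and for part of the listed genes. A listed gene was represented by its probe of highest mean. Named genes were the family members, the called members of each list or otherwise up to 4 of smallest p, and the 10 probes most and 5 most opposite in likeness. The gene, the lists and the tests were chosen with earlier results of these data known, so no test of FABP1 itself is reported. The model was tested on simulated data. Replicate numbers did not pair the samples: same-numbered arrays of different groups had deviations correlated from -0.462 to 0.364 (median -0.051, 24 pairs). Figures used matplotlib 3.10.9 in Python 3.11.15. Some items are not reported here.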

Additional observations from a re-analysis of the deposited data

Results flagged for a closer look

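The 25 probes examined were those of FABP1, its tested family members, PPARA and the probes named for likeness, and no other named genes. In 3 of their 100 groups of 4 arrays, 1 array stood far from the other 3 (the gap to its neighbour, as a share of the group's range, was above Dixon's 95% critical value). Chance alone marks about 1 group in 20. CXCR6 had 11.33 in oleic acid replicate 4 (normalised log2 level), with the other oleic acid arrays from 10.06 to 10.18, and a share of 0.901. SCAP had 12.04 in the same array, with the others from 10.97 to 11.14, and a share of 0.842. The brighter RBP5 probe had 3.89 in control replicate 4, with the other control arrays from 2.38 to 2.47, and a share of 0.941. FABP1 had no such array in any group.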

How the results depend on the processing

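FABP1 kept its direction for elaidic acid against oleic acid and control, stearic acid against control and oleic acid against stearic acid on both probes under every alternative run. Elaidic acid against oleic acid ran from 2.02 to 2.85 on the brighter and from 1.31 to 3.06 on the dimmer probe, and elaidic acid against control from 1.75 to 2.51 and from 1.21 to 2.50 (log2). Elaidic acid against stearic acid ran from -0.03 to 0.99 on the brighter probe, below 0 without normalisation alone. Oleic acid against control ran from -0.71 to 0.07 and from -0.92 to 0.06, so neither probe has a settled sign there. With an offset of 50 the dimmer probe had 1.31 for elaidic acid against oleic acid, 1.21 for elaidic acid against control, 0.86 for stearic acid against control and -0.96 for oleic acid against stearic acid. Without normalisation the brighter probe had 2.54 for stearic acid against control, -2.87 for oleic acid against stearic acid and 1.68 between the ranges within elaidic acid. With array range as a block those of stearic acid against control were 0.78 and 0.48 and those of oleic acid against stearic acid -1.03 and -1.01. The correlation of the probes in range B was 0.693 without normalisation and 0.639 with median scaling. Of the 10 probes most like FABP1, 5 were shared with Spearman's rho and 8 with median scaling. Oleic acid replicate 4 read the dimmer probe at an intensity of 3.38, its lowest value over the 16 arrays.

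Counts of calls depended on the setting far more, and the cause was not tested except where fewer arrays or probes entered the fit. For elaidic acid against oleic acid, 73 probes passed. The count was 216 with the offset, 8953 with array weights, 2 without normalisation, 180 without the dimmest 50%, 5 with array range as a block, 0 in range A alone or in a fit of the 2 groups, 4 with the replicate block, 23 without the 2 dimmest arrays (chosen after seeing the data), 25 with values under 1 set to 1 and 121 with trend and robust variances. For elaidic acid against control the 74 became 218, 4656, 0, 189, 9, 0, 0, 28, 33, 38 and 152 under the same settings. For elaidic acid against stearic acid the 91 became 582, 1030, 0, 294, 1, 0 (in range B alone), 0, 0, 283, 2 and 222. Of these calls 22.0% were higher, and 6.98% were with median scaling and 14.8% with cyclic loess. For stearic acid against control 6825 became 10585 with array weights, 3099 without normalisation and 4452 without the 2 dimmest arrays, and the share higher was 50.3%, or 92.1% without normalisation. For oleic acid against stearic acid 9057 became 5125 without normalisation and 6023 without the 2 dimmest arrays, and the share higher was 53.3%, or 5.87% without normalisation. Array weights called 1 probe for oleic acid against control; they gave elaidic acid replicates 2 and 4 weights of 0.309 and 0.324, and replicates 1 and 3 weights of 1.26 and 2.97.

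For elaidic acid against oleic acid, array weights called 8953 of all 22939 probes. Among the lists they called 5 of 7 family members, 7 of 16 PPAR-alpha targets and 8 of 16 uptake genes. They also called 10 of 18 regulators and 10 of 11 hepatocyte markers. Against control they called 2, 5, 7, 6 and 9 members of the same lists, beside 4656 of all probes. Against stearic acid they called 2 uptake genes, 3 regulators and 1 hepatocyte marker, beside 1030 of all probes. They called 10 PPAR-alpha targets for oleic acid against stearic acid. The called uptake gene and hepatocyte markers of elaidic acid against oleic acid and control fell to 0 without normalisation, with array range as a block, in range A alone and in a fit of the 2 groups. With the replicate block 0 uptake genes passed in both and 0 hepatocyte markers against oleic acid; without the 2 dimmest arrays these were 0, 0 and 1. Against oleic acid 2 uptake genes passed without the dimmest 50%, and 1 hepatocyte marker with values under 1 set to 1. Against control 3 hepatocyte markers passed with the offset, without the dimmest 50% and with trend and robust variances. Against stearic acid the offset called 1 uptake gene, 3 regulators and 1 hepatocyte marker, 1 uptake gene passed without the 2 dimmest arrays, and 1 hepatocyte marker passed there, without the dimmest 50% and with trend and robust variances. For stearic acid against control the family count of 4 became 0 without normalisation and with values under 1 set to 1, 2 without the dimmest 50% and with median scaling, and 1 with the replicate block and without the 2 dimmest arrays. PPAR-alpha targets there became 4 without normalisation and without the 2 dimmest arrays, and regulators 6 without normalisation and with values under 1 set to 1. For oleic acid against stearic acid 2 family members passed without normalisation and without the dimmest 50%, and 11 hepatocyte markers without normalisation and with median scaling. All list counts of these 2 comparisons were 0 with array range as a block.

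Leaving out each replicate in turn gave 3 calls (without elaidic acid replicate 1) to 192 (without elaidic acid replicate 4) for elaidic acid against oleic acid, with 0 to 1 uptake genes and 0 to 3 hepatocyte markers. Elaidic acid against control gave 25 to 114, without the same arrays, with 0 to 1 uptake genes and 0 to 2 hepatocyte markers. Elaidic acid against stearic acid gave 51 without elaidic acid replicate 1 and 0 without any other of its arrays. Stearic acid against control gave 3564 (without stearic acid replicate 1) to 8207, with 0 to 3 family members, 2 to 8 PPAR-alpha targets, 4 to 8 uptake genes and 6 to 9 regulators. Oleic acid against stearic acid gave 4767 (without oleic acid replicate 4) to 8531, with 1 to 4 family members. Replicate numbers pair no samples by the labels, and in this balanced design the replicate block cannot change a difference, so that FABP1 had 2.48 and 2.68 for elaidic acid against oleic acid by construction.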
